A study of Xenopus laevis with 14 samples.

Results

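Pieces of Xenopus laevis embryonic ectoderm (animal caps) that carried RNA for a fusion of prdm12 with the engrailed repressor domain (engR) were compared with caps without the fusion. The comparison was chosen by the names of the table columns and rests on 4 of the 14 samples of the series, 2 engR libraries and 2 control libraries. The control caps received RNA of noggin, a BMP antagonist that turns ectoderm neural, and retinoic acid (RA), which gives neural tissue a posterior character, and the engR caps received noggin RNA, RA and prdm12-engR RNA. The libraries of prdm12 without an added domain and of prdm12 fused to the VP16 activation domain, 2 each and also with noggin RNA and RA, are used to show where engR caps differ, and the 2 libraries of untreated wild-type caps give the level in epidermal ectoderm. RNA was injected into embryos of 2 cells and the caps were cut at about stage 10. Injected RNA is not confined to a cell type. The sources used here do not give the RA dose, the amount of RNA, the number of caps in a library or the stage at harvest.

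Prdm12 is a zinc-finger protein with a PR domain. It is expressed in the p1 progenitor domain of the ventral hindbrain and spinal cord, which forms the inhibitory V1 interneurons, and in mouse and human it is needed for pain-sensing neurons. The engrailed repressor domain comes from the Drosophila Engrailed protein and recruits Groucho (TLE) corepressors, while VP16 is a strong activation domain of herpes simplex virus. Fusions of these kinds are commonly used in Xenopus to turn a transcription factor into an obligate repressor or activator.

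Levels below are normalized reads, which are reads per gene divided by 1 factor per library, and values are given in the order replicate 1 and replicate 2. The 10 RNA libraries held 11986697 to 15893668 reads on genes. Changes are log2 differences of (value + 1) ± SE between 2 and 2 libraries, a scale that understates the change of low genes, and adjusted p-values are from limma over 12937 genes, those whose mean was 10 normalized reads or more, unless another test is named. Gene lists are given with the number of listed genes in the table and the number that passed this filter and were tested. The labels of 1 engR library, replicate 1, disagree: its title gives engR but its treatment entry gives prdm12_VP16, and it was grouped by title. The V1 gene en1 was at 268 and 264 normalized reads in the 2 engR libraries, whereas the VP16 libraries had 1.15 and 1.96. The hindbrain neuron gene phox2a was at 8.34 and 1.03 in the engR libraries and 444 and 399 in the VP16 libraries. The share of read records not aligned uniquely was 34.1% and 34.2% in the engR libraries against 27.7% and 26.4% in the controls and 23.8% to 27.9% in the other neuralized libraries, and its part in the results was not tested.

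The prdm12 line of the table, which cannot separate injected RNA from the embryo's own transcripts, had 29.3 and 77.8 normalized reads in the controls and 262 and 159.7 in engR caps. The groups did not overlap, but the difference of 2.07 ± 0.77 did not pass limma (adjusted p = 0.230), its fit with the replicate number as a block (0.123) or edgeR (0.182), and passed DESeq2 (0.0271). The neural label was checked on sox3, a neural progenitor factor, which had 22.5 and 20.8 normalized reads in wild-type caps, 2193 and 2819 in the controls and 718 and 576 in engR caps. The larval epidermal keratin krt12 had 283374 and 242427 in wild-type caps and 145 and 208 in the controls.

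With engR, 4 genes of V1 interneurons, the transporter gene of the inhibitory transmitters, 3 neuropeptide genes, the homeobox pair hmx2 and hmx3, genes of sensory neurons and several ion channel and epidermal genes rose, while genes of motile cilia and of neural progenitors fell. The largest rise was that of the somatostatin gene sst, from 10.6 and 9.20 to 4776 and 2026 normalized reads. Of 12937 genes, 444 (3.43%) passed an adjusted p of 0.05. Of these, 312 (2.41% of the genes tested) rose and 132 (1.02%) fell. In each of them both engR libraries lay on the same side of both controls, which selection by a test of these libraries favours. Over all genes, both engR libraries lay above both controls in 25.9% and below them in 20.1%. EdgeR called 433 (3.35%) and DESeq2 1169 (9.04%), and after quantile normalization limma called 281 higher and 226 lower. In bulk caps, more cells of a type and more RNA per cell cannot be told apart. A fit with the replicate number as a block called 1414 (10.9%), 933 (7.21%) higher and 481 (3.72%) lower. Counts in the gene lists below are to be read against these shares over all genes, of which 52.2% had a positive difference. The lists were chosen with earlier results of these data known, so their counts are descriptive and not an independent test of a list. Without engR replicate 1, the library with 2 labels, limma called 4 genes, all higher (0.0309%), and none of them was in a gene list below. Leaving out engR replicate 2 also left 4 calls, and leaving out noggin replicate 1 or 2 left 52 or 46. With the block and without engR replicate 1 it called 537 (4.15%), 373 (2.88%) higher and 164 (1.27%) lower.

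**Figure D1:**
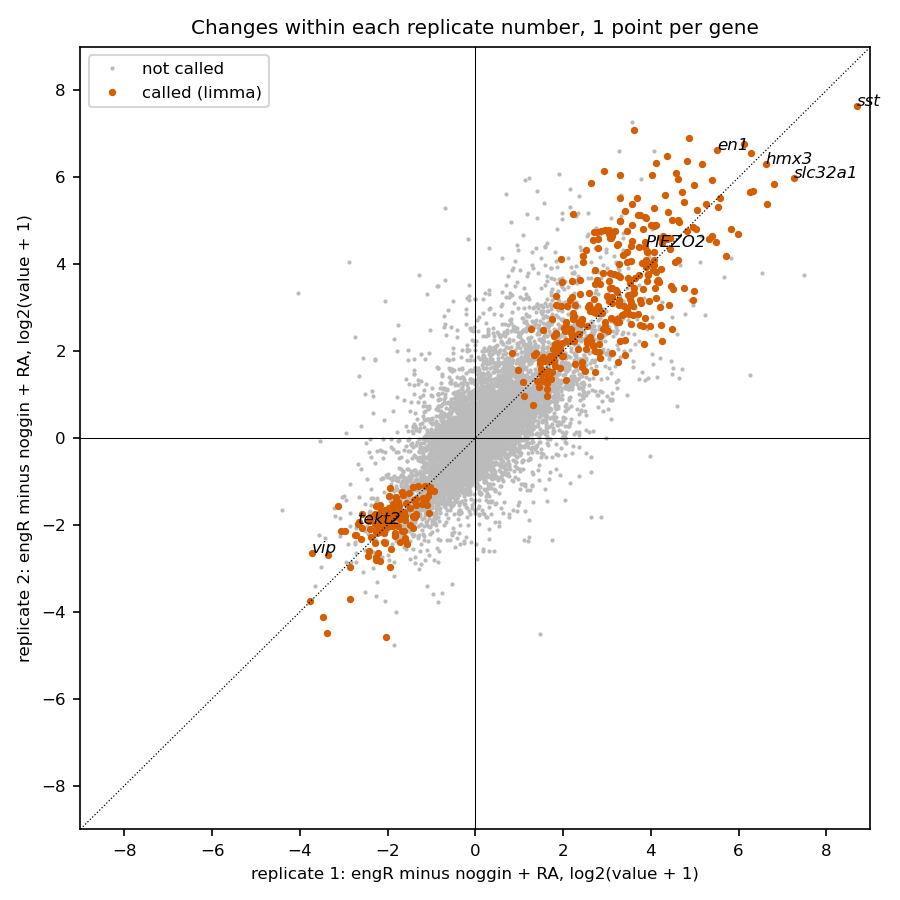
Each point is 1 of the 12937 genes tested, with the difference of log2(value + 1) between the engR and the control library of replicate number 1 on the x axis and of number 2 on the y axis; coloured points are the 444 genes called by limma. The called genes, which were chosen by a test of these same libraries, have the same sign on both axes, and sst lies farthest to the upper right.

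The 4 genes that passed limma without engR replicate 1 were MYO5C, anxa4, esrp1 and adarb2. The myosin motor gene MYO5C had 26.8 and 28.4 normalized reads in the controls and 1061 and 1228 with engR, a rise of 5.32 ± 0.29 (adjusted p = 0.000799). The gene of the epithelial splicing regulator esrp1 rose from 67.5 and 82.0 to 834 and 906. The annexin gene anxa4 rose from 1603 and 1628 to 15422 and 13659.7. These 3 genes were higher still in wild-type caps, at 4125 and 2858, 9709.6 and 10603 and 24283 and 18889 normalized reads. In contrast, adarb2, a member of the RNA editing enzyme family, had 9.26 and 12.0 in wild-type caps and rose from 23.6 and 16.7 to 1038 and 1089 (5.67 ± 0.35, adjusted p = 0.000861).

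Among 14 tested of 16 listed genes of the V1 lineage, 4 rose and 1 fell, against 2.41% and 1.02% of all genes, and their median difference was 1.57 against 0.03 over all genes. The V1 homeobox gene en1 rose from 4.88 and 1.67 to 268 and 264 normalized reads (adjusted p = 0.00485). Its control level rests on 8 reads, and the ratio of reads was 80.6 (95% counting interval 40.6 to 188). The interneuron regulator pax2 rose from 42.3 and 76.1 to 1824 and 1943 normalized reads (5.03 ± 0.50, adjusted p = 0.00485). Its relative pax8 rose from 28.5 and 56.9 to 413 and 342 (3.19 ± 0.50). The forkhead gene foxd3, which is active in V1 neurons and in neural crest, rose from 47.2 and 18.4 to 1004 and 717 (adjusted p = 0.0365). The member that fell was SP8, a zinc-finger gene that marks a subset of V1 neurons in mouse, from 1119 and 1436 to 370.2 and 281 (adjusted p = 0.0490). Other V1 markers, lhx1 (1247 and 2870 against 4347 and 4039, adjusted p = 0.385) and foxp2 (502 and 501 against 559 and 643, 0.926), did not pass. The marker lhx5, with 12.2 and 41.0 against 201 and 108, passed DESeq2 (adjusted p = 0.0255) but not limma (0.149). With the block lhx1, foxp2 and lhx5 did not pass either (adjusted p = 0.0696, 0.825 and 0.0849). With the block and without engR replicate 1, en1, pax2, pax8 and foxd3 passed and SP8 did not (adjusted p = 0.0561).

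Of 8 tested of 9 listed genes of GABA and glycine transmission, 1 rose and none fell, and with the block 4 were higher and 2 lower. The vesicular transporter of both transmitters, slc32a1 (ENSXETG00000025497, positions 1176875 to 1183596 of scaffold GL172674.1 in the deposited table), had 34.1 and 82.0 normalized reads in the controls and 5417 and 5284 with engR. Its rise of 6.63 ± 0.58 passed the test (adjusted p = 0.00368), and both engR libraries lay far above both controls. The GABA-synthesizing enzyme gene gad1 had 21.9 and 156 normalized reads in the controls against 2125 and 2204 with engR. Its controls differed from each other, and the difference of 5.17 ± 1.14 missed the threshold (adjusted p = 0.0513) but passed with the block (adjusted p = 0.0105) and by DESeq2 (8.2e-05). The glycine transporter gene slc6a5 had 299 and 765 against 2229.5 and 2746 and likewise passed with the block (adjusted p = 0.0189) and by DESeq2 (0.0342) but not without the block (0.163). With prdm12 gad1 was at 4393 and 4028 and slc6a5 at 2478 and 4538. The 2 members lower with the block were other transporter genes of the list. These were slc6a13 (1221 and 717 against 424 and 162, adjusted p = 0.0137 with the block) and slc6a9 (172 and 345 against 68.8 and 83.5, 0.0211 with the block). On the receiving side, 1 of 9 tested of 17 listed GABA and glycine receptor genes rose, and 2 were higher with the block. The gene that rose was glra2, a subunit of the glycine receptor, from 5.69 and 10.0 to 216 and 310.1 (4.92 ± 0.69, adjusted p = 0.0128). With prdm12 glra2 was at 182 and 258. None of 11 tested of 16 listed genes of glutamate, acetylcholine and monoamine neurons passed, and 1 was higher with the block; their median was 0.09, which became -0.90 after quantile normalization.

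Neuropeptide and secretory granule genes gave 3 rises and 1 fall among 19 tested of 28 listed, with a median of 1.32. With the block 8 were higher and 1 lower, and without engR replicate 1 as well 2 were higher and none lower. The rise of sst (ENSXETG00000019777, positions 2228041 to 2229578 of scaffold GL172717.1), which encodes the inhibitory peptide somatostatin, was 8.16 ± 0.76 (adjusted p = 0.00379, 344-fold between means). The engR libraries differed from each other by more than the controls did, and both lay above the prdm12 libraries at 272 and 91.7 and the wild-type libraries at 210.4 and 53.6. The gene of the opioid precursor proenkephalin, penk, rose from 313 and 362 to 2187 and 2976 (2.92 ± 0.34, adjusted p = 0.00797). The gene of the vasopressin family, avp, rose from 13.8 and 17.6 to 217 and 126 (3.32 ± 0.56, adjusted p = 0.0214), and it had 7.39 and 4.96 normalized reads with prdm12. Without engR replicate 1 and with the block, avp no longer passed (adjusted p = 0.0911). In the opposite direction, the gene of vasoactive intestinal peptide, vip, fell from 344 and 238 to 25.0 and 37.1 (-3.19 ± 0.64, adjusted p = 0.0375, and 0.117 with the block and without engR replicate 1). The gene of the related peptide PACAP, adcyap1, had 22.8 and 15.1 against 76.1 and 109 and passed with the block (adjusted p = 0.0492) and by DESeq2 (0.00788) but not without the block (0.0998).

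**Figure D2:**
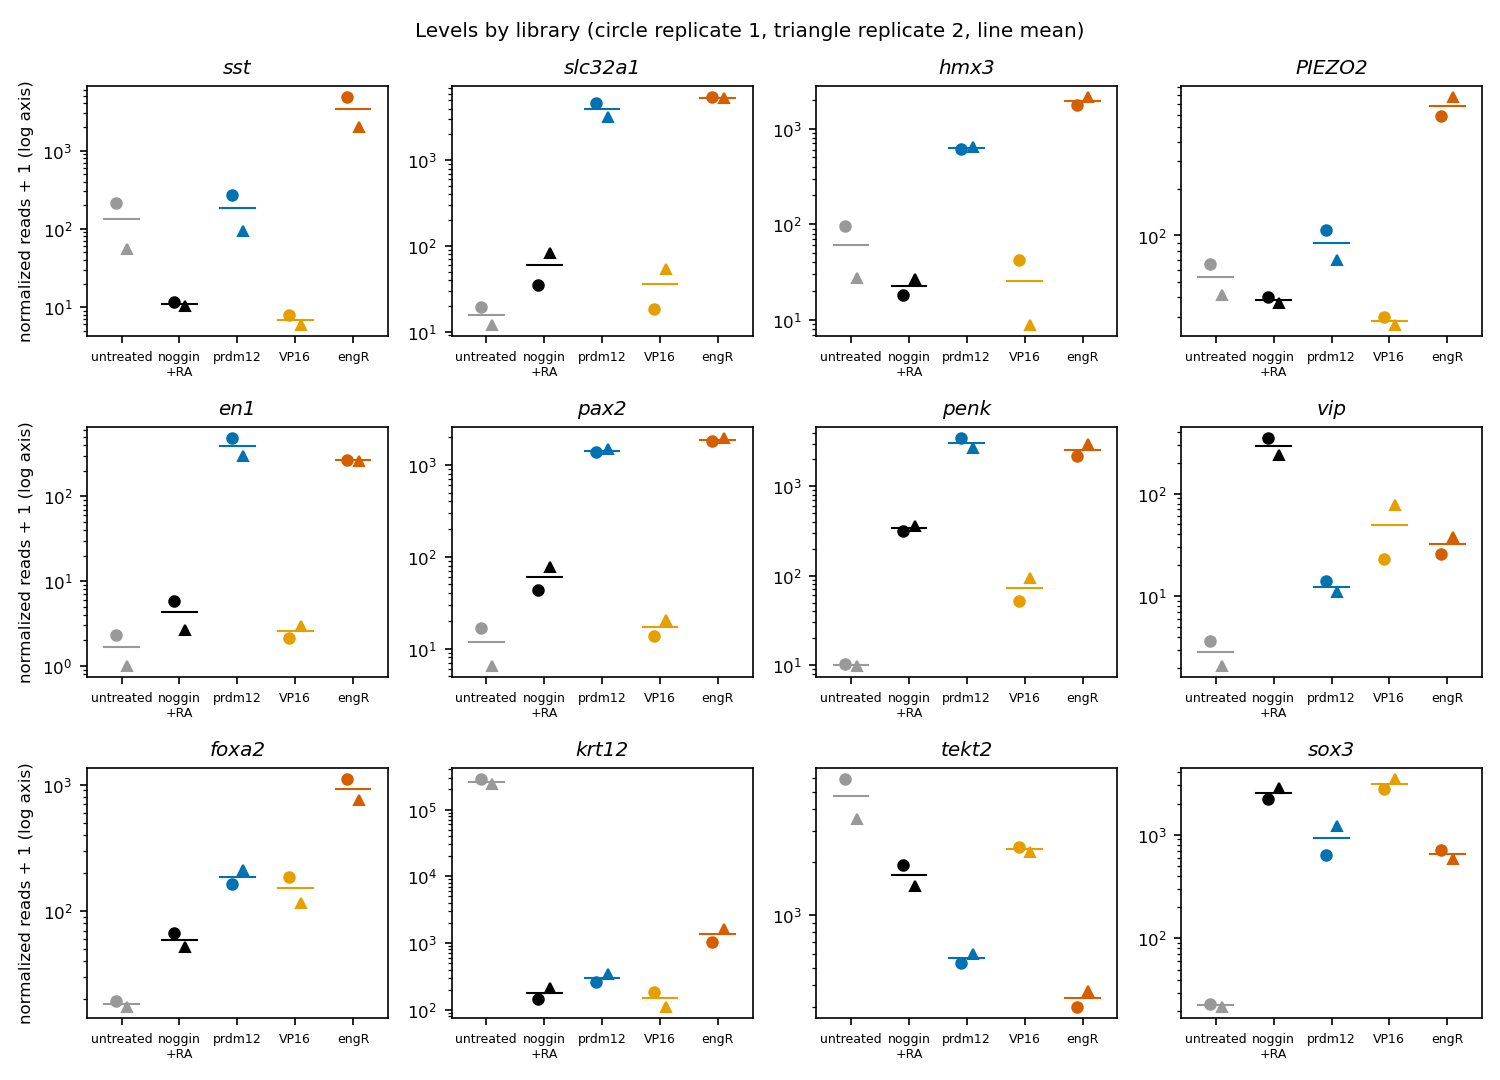
Normalized reads + 1 of 12 genes on log axes in each of the 10 libraries, by group, with replicate 1 as circles, replicate 2 as triangles and the group mean as a line. The engR values of sst, hmx3, PIEZO2 and foxa2 lie above those of every other neuralized library, those of slc32a1, en1, pax2 and penk are near those of prdm12, and those of vip, tekt2 and sox3 lie below both controls.

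Genes of placodes and the inner ear gave 3 rises and no fall among 15 tested of 18 listed (median 1.55), and 6 were higher with the block. Of the 3, pax8 also stands among the V1 genes above. The others were the homeobox genes hmx3 (ENSXETG00000009562, positions 762668 to 765746 of scaffold GL172952.1) and hmx2 (ENSXETG00000027771, positions 788529 to 790210 of scaffold GL172952.1), neighbours on the same scaffold that act in inner ear development in mouse. Levels of hmx3 were 17.1 and 25.9 in the controls and 1777 and 2125 with engR, a rise of 6.46 ± 0.78 (adjusted p = 0.00831). Those of hmx2 were 0 and 2.51 against 99.1 and 146 (adjusted p = 0.0193), and because the controls held 3 reads the ratio of 99.3 has a wide counting interval (95%, 33.6 to 485). Both genes also had reads in wild-type caps, hmx3 at 94.0 and 26.3 and hmx2 at 255 and 81.0 normalized reads. With the block and without engR replicate 1, hmx3 passed (adjusted p = 0.0223) and hmx2 did not (0.0562).

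Among 17 tested of 23 listed genes of sensory neurons, 4 rose and none fell, and the same number rose with the block and without engR replicate 1. The touch channel gene PIEZO2 (ENSXETG00000004054, positions 1323988 to 1399091 of scaffold GL172930.1) rose from 39.0 and 36.0 to 585 and 775 normalized reads (4.13 ± 0.39, adjusted p = 0.00379). In all other libraries its level was at most 108. The homeobox gene tlx3, which acts in excitatory neurons of the dorsal horn and in sensory neurons, rose from 8.94 and 8.37 to 204 and 222 (4.47 ± 0.59, adjusted p = 0.0114). The homeobox gene DRGX, which acts with it in the pain pathway, rose from 6.50 and 9.20 to 132 and 127 (3.90 ± 0.63, adjusted p = 0.0192). The ETS factor etv1 of proprioceptive neurons rose from 881 and 1519 to 3334 and 4619. The other 13 tested genes did not pass, and runx3, a regulator of sensory neurons below the filter on low values, had at most 3.13. Genes tlx3 and DRGX were also the only 2 of 13 tested of 22 listed dorsal neural genes that rose, and the median of those was -0.64.

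Of 61 tested of 88 listed potassium channel and channel-associated genes, 7 rose and 1 fell, against 2.41% and 1.02% of all genes. With the block 12 were higher and 2 lower, against 7.21% and 3.72% of all genes. The modifier subunit gene kcng2 rose from 8.94 and 9.20 to 457 and 405 (5.42 ± 0.48, adjusted p = 0.00368). The leak channel family gene kcnk12 rose from 4.88 and 3.35 to 126 and 104 (4.51 ± 0.59). The inward rectifier gene kcnj16 rose from 29.3 and 30.1 to 518 and 340.0, and wild-type caps held 525 and 324. The other genes that rose were the calcium-binding partner gene kcnip3 (3.31), kcnh7 of the ether-a-go-go family (1.74), the small-conductance calcium-activated channel gene kcnn2 (1.64) and the leak channel gene kcnk6 (1.43). The gene that fell was the channel regulator kcnrg (13.0 and 13.4 to 2.09 and 1.03). With the block and without engR replicate 1, 3 of the family were higher and 2 lower.

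All 10 voltage-gated sodium channel genes had positive differences (median 1.28, and 9 of 10 were positive after quantile normalization), but none passed, and 4 were higher with the block. Of 22 calcium channel genes 1 rose, the auxiliary subunit gene cacng4 from 67.5 and 51.9 to 317 and 350.3 (adjusted p = 0.0191), and 2 were higher with the block. Of 14 acetylcholine receptor genes 3 rose and none fell, and 5 were higher with the block. These were the muscarinic receptor genes CHRM4 (42.3 and 44.3 to 337 and 269) and chrm5 (12.2 and 11.7 to 95.9 and 92.7) and the nicotinic subunit gene chrna5 (405 and 424 to 1102 and 965), none of which passed with the block and without engR replicate 1 (adjusted p = 0.0854, 0.0968 and 0.104). With prdm12 CHRM4 was at 454.5 and 506, above both engR libraries. Of 23 glutamate receptor genes none passed, and 2 were higher with the block. Over all genes, 7.21% were higher with the block.

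Other large rises were in genes outside these groups. The neurexophilin gene nxph2, of a family of neurexin ligands, had no read in the controls and 68.8 and 108 normalized reads with engR. With a floor of 3 reads over the control group the ratio was 71.6. Without the floor the ratio has no finite value, and its lower 95% counting limit was 57.6. The plasmolipin gene pllp, a membrane protein of myelin and epithelia, rose from 2.44 and 1.67 to 164 and 122 (5.55 ± 0.45), on 5 control reads (ratio of reads 69.1, 95% counting interval 29.3 to 215). The extracellular matrix gene vtn, for vitronectin, rose from 15.4 and 2.51 to 481 and 417 (5.88 ± 0.76, adjusted p = 0.0108). The amino acid transporter family gene slc6a14.2 rose from 79.7 and 66.1 to 2290.0 and 5558, and the phosphatase inhibitor gene ppp1r1c from 0 and 1.67 to 76.1 and 135. The latter rests on 2 control reads (ratio 128, 95% counting interval 35.0 to 1066).

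Genes of progenitor and neuron domains other than p1 moved in both directions, with 4 rises and 2 falls among 24 tested of 29 listed and 5 lower with the block. The genes that fell were the V2 homeobox gene vsx1, from 1777 and 1354 to 425 and 431 (-1.86 ± 0.26, adjusted p = 0.0127), and phox2a, from 37.4 and 47.7 to 8.34 and 1.03 (-3.31 ± 0.72, adjusted p = 0.0490). The ventral progenitor gene nkx6-1 had 426 and 291 against 105 and 64.9, and its difference of -2.08 ± 0.48 missed the threshold (adjusted p = 0.0593) but passed with the block (0.0271), by edgeR (0.0455) and by DESeq2 (0.00152). Levels of the neighbouring progenitor genes dbx1 (724 and 1023 against 731 and 750.1) and nkx6-2 (862 and 692 against 845 and 716) overlapped between the groups, and the 95% intervals of their differences were -1.38 to 0.95 and -1.14 to 1.16. Acetylcholine genes of motor neurons did not rise and none passed limma. SLC18A3 had 491 and 825 against 196 and 468, chat 35.0 and 44.3 against 7.30 and 31.9, and slc5a7 238 and 434 against 116 and 228. The genes of the list that rose were the V3 gene sim1, from 32.5 and 14.2 to 318 and 338 (3.86 ± 0.56), isl2, a gene of motor neurons among others, from 35.0 and 52.7 to 491 and 461 (3.44 ± 0.40), and gata3 and foxa2. All 4 and both falls passed with the block and without engR replicate 1.

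The forkhead gene foxa2, a regulator of floor plate and endoderm, rose from 65.9 and 51.0 to 1100.2 and 755 (3.95 ± 0.37, adjusted p = 0.00379). In all, 4 of 10 tested of 15 listed endoderm genes rose and none fell (median 2.12). The protease inhibitor gene a2m rose from 2472 and 1842 to 12863 and 18237 (2.84 ± 0.36). Both other members were low in the controls, with cdx2, a hindgut homeobox gene, rising from 7.32 and 1.67 to 44.8 and 47.4 and darmin, a peptidase gene of Xenopus endoderm, from 3.25 and 0.840 to 40.7 and 83.5. For darmin, with 5 control reads, the 95% counting interval of the ratio was 12.6 to 94.6. The endoderm-specifying gene sox17a was low, at 8.13 and 10.9 in the controls and 24.0 and 18.6 with engR, and was not tested. Of the 10 tested genes, 8 had a positive and 2 a negative difference. The negative ones were foxa1, whose levels overlapped (2456 and 1825 against 2030 and 1852, adjusted p = 0.877), and gata5 (379 and 139 against 127 and 84.5, 0.611). Summed over the list, levels were 8527 and 6038 normalized reads in the controls, 21638 and 25038 with engR and 844 and 974 in wild-type caps, and a2m made up most of them in the engR libraries. With prdm12 the sums were 13048 and 15827, above both controls.

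Of 31 tested of 32 listed epidermal genes, 7 rose and none fell (median 1.99), and with the block 14 were higher and 1 lower. The tight junction gene cldn1 rose from 14.6 and 3.35 to 1262 and 222 (6.01 ± 1.12, adjusted p = 0.0294), with the engR libraries far apart. The transcription factor gene gata3, which is active in epidermis and in V2b neurons, rose from 93.5 and 55.2 to 1601 and 1097 (4.19 ± 0.48, adjusted p = 0.00750). The epidermal regulator genes tfap2c (39.0 and 19.2 to 501 and 259.7) and grhl2 (8.94 and 21.8 to 186 and 138) also rose. The others were klf5 (3.26), the uroplakin gene upk3a (3.79) and krt12, which rose from 145 and 208 to 1034 and 1644 (2.90 ± 0.35) and whose reads may be split with a near copy, KRT12, on another line. With engR the levels were far below those of wild-type caps, at 283374 and 242427 for krt12 and 811 and 662 for grhl2. Summed over the list they were 490891 and 494523 in wild-type caps, 35988 and 26669.8 in the controls and 47855 and 38462 with engR. The sums were 35720 and 31513 with prdm12 and 69812 and 48007 with VP16. Further markers gave no call: ppl had 445.5 and 218 in the controls and 272 and 385 with engR, and tp63 had 1.63 and 3.35 against 36.5 and 18.6. Of 17 tested of 19 listed genes for other epidermal cell types (goblet, ionocyte, small secretory) none passed, and 3 were higher with the block. The part of epidermal RNA in the rises of other genes with high levels in wild-type caps, such as anxa4, esrp1, MYO5C and kcnj16, was not tested.

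**Figure D3:**
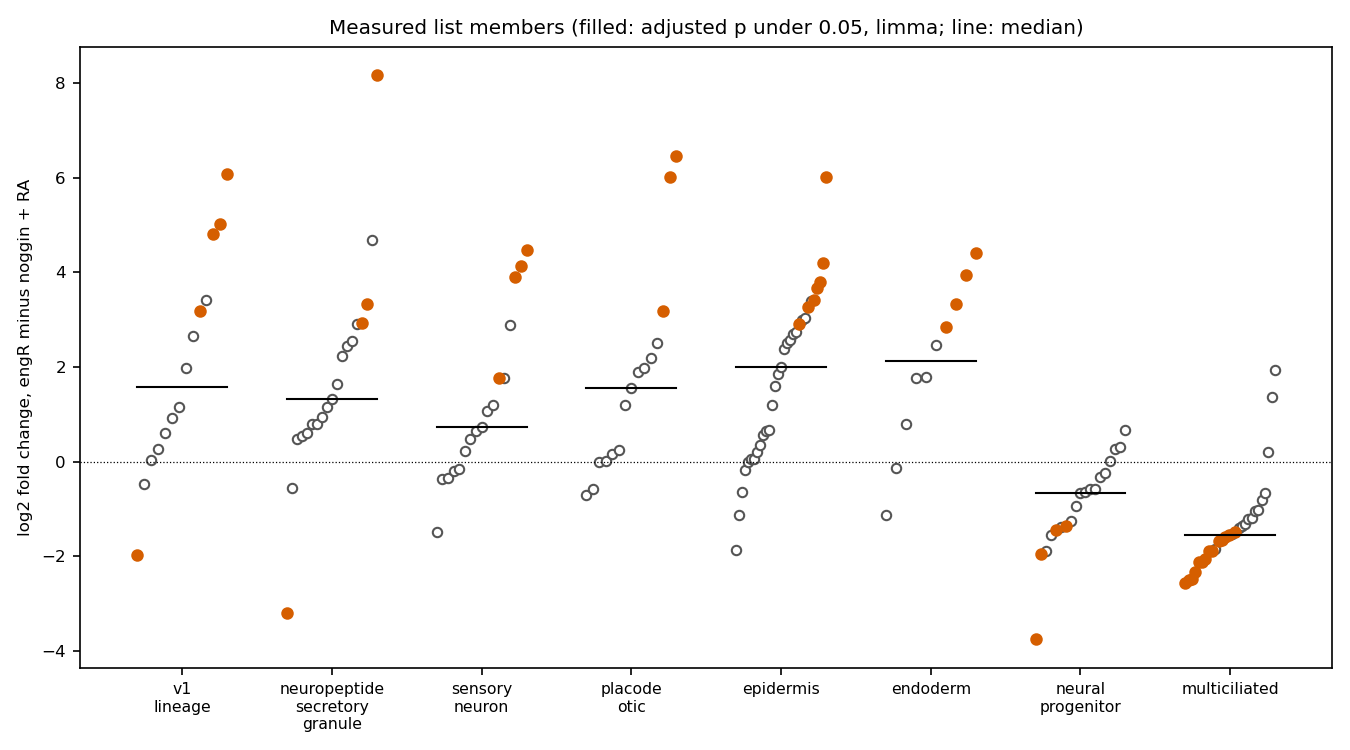
Difference of log2(value + 1) between engR and control caps for each measured member of 8 gene lists, with filled points for members past an adjusted p of 0.05 and a line at the list median. The multiciliated list lies mostly below 0 and the epidermal and endodermal lists mostly above it.

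Genes of multiciliated cells were lower with engR: 14 of 28 tested of 30 listed fell and none rose, against 1.02% lower among all genes, and the median was -1.54. In 24 of the 28 both engR libraries lay below both controls, against 20.1% of all genes. The master regulator of motile cilia, foxj1, fell from 1921 and 1345 to 575 and 454 (-1.65 ± 0.30, adjusted p = 0.0284). The tektin gene tekt2, for a filament of the axoneme, fell from 1929 and 1465 to 299 and 371 (-2.33 ± 0.28, adjusted p = 0.00831). The outer arm dynein gene DNAH9 fell from 562 and 624 to 104 and 102 (-2.51 ± 0.35), and lrrc6, which acts in dynein arm assembly, from 89.4 and 79.5 to 15.6 and 11.3. Another 9 falls in the list, among them the axonemal genes tekt1, efhc2 and CFAP43, were between -1.48 and -2.12 on the log2 scale. Without engR replicate 1 and with the block, 14 fell. Summed over the list, levels were 27085 and 22074 in the controls and 9516 and 7813 with engR, and 46709 and 27918 in wild-type caps. With prdm12 without an added domain they were 12620 and 12803, also below both controls. No member passed limma between engR and prdm12, with or without the block. The regulator myb, another defining marker, was low in both groups and, unlike most of the list, higher with engR, at 7.32 and 5.02 against 16.7 and 17.5.

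Neural progenitor genes gave 4 falls and no rise among 19 tested of 19 listed (median -0.66), and 7 were lower with the block. The HMG-box gene sox3 fell from 2193 and 2819 to 718 and 576 (-1.95 ± 0.33, adjusted p = 0.0214). The gene of the RNA-binding protein msi1 fell from 8102 and 9102 to 3186 and 3151, and that of the intermediate filament vim from 28695 and 20208 to 12419 and 7076. Summed over the list, levels were 65447 and 63307 in the controls and 38817 and 31069 with engR. With prdm12 they were 38298 and 46137, also below both controls. Of 39 neuronal differentiation genes none passed, and 30 had a positive difference (median 0.81), against 52.2% of all genes. With the block 3 were higher and 2 lower, against 7.21% and 3.72% of all genes. After quantile normalization 1 of the 39 was called lower. None of 23 cell cycle genes passed (median -0.05).

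Among 14 tested of 16 listed genes of retinoic acid metabolism and response, 1 fell and none rose, and with the block 6 were lower. The retinol transport receptor gene stra6 fell from 900.0 and 1319 to 250.3 and 276 (-2.05 ± 0.40, adjusted p = 0.0350). The RA-degrading enzyme genes cyp26c1 (20879 and 34862 against 10489 and 7762) and cyp26a1 (104884 and 114095 against 71330.1 and 55507) missed the threshold (adjusted p = 0.0798 and 0.121) but passed with the block (0.0183 and 0.0406) and by DESeq2 (0.00728 and 0.0389). None of 26 tested Hox genes passed, and 1 was lower with the block. Of 16 mesoderm genes (median -0.10) none rose and 1 fell, the cardiac actin gene actc1, from 2850.5 and 1616 to 431 and 341 (adjusted p = 0.0354). The muscle regulator myod1, with 238 and 264 against 19.8 and 33.0, missed the threshold (adjusted p = 0.0508) but passed with the block (0.00546), by edgeR (0.04999) and by DESeq2 (0.000366). With the block 2 of the 16 were higher and 2 lower. Those higher were foxc1, with 233 and 146 against 957 and 655 (adjusted p = 0.0266 with the block), and gata4, with 4.07 and 4.18 against 17.7 and 41.2 (0.0376). Of 11 Prdm genes 1 fell, prdm8, from 488 and 511 to 135 and 127 (adjusted p = 0.0355). Its relative prdm14, a regulator of pluripotency in mammals, had 298 and 262 against 1214 and 1209.7, a difference of 2.11 ± 0.66 that did not pass (adjusted p = 0.146, and 0.0534 with the block) except by DESeq2 (3.5e-07).

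The largest falls outside the lists were of nrros, a gene for a leucine-rich repeat protein, from 42.3 and 44.3 to 3.13 and 1.03 (-3.94 ± 0.67, adjusted p = 0.0217), and of the D-type cyclin gene ccndx, from 394 and 231 to 34.4 and 12.4 (-3.80 ± 0.79). The betaine and GABA transporter gene slc6a12 fell from 209.8 and 346 to 28.2 and 25.8, and the adhesion receptor gene GPR144 from 10847 and 11207 to 1299 and 2533. The tumour suppressor candidate dlec1 fell from 225 and 172 to 45.9 and 23.7. With the block and without engR replicate 1, nrros and GPR144 passed (adjusted p = 0.0327 and 0.0478) and ccndx and slc6a12 did not (0.0631 and 0.0594).

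The remaining lists held few or no calls. Of 15 genes of BMP response 1 rose, id4, from 858 and 928 to 2653 and 2016 (adjusted p = 0.0377). With the block, smad7 was also higher (26.0 and 9.20 against 56.3 and 55.6, adjusted p = 0.0286). The block called tbx2 lower (3209 and 1830 against 899 and 731, adjusted p = 0.00508). Of 9 Wnt genes 1 rose, wnt16, from 6.50 and 5.86 to 88.6 and 67.0 (adjusted p = 0.0198), and wnt11 had 2634 and 3079 against 556 and 690.4 and passed with the block (adjusted p = 0.00742) and by DESeq2 (0.00426) but not without the block (0.0960). Another Wnt gene, wnt9b, had 4.07 and 0 against 84.5 and 96.9, on 5 control reads. Its rise passed with the block (adjusted p = 0.0270) and by DESeq2 (0.00515) but not without the block (0.0583). Of 22 stress genes 1 rose, the immediate early gene egr1, from 332 and 289 to 835 and 1096 (adjusted p = 0.0219), and 3 were higher with the block. None of 17 neural crest, 6 anterior neural, 14 Notch, 12 Hedgehog, 16 corepressor and histone H3 methylation and 16 housekeeping genes passed. With the block, 3 Hedgehog genes were lower, 1 Notch gene was higher and 2 lower, and 1 neural crest gene was higher and 1 lower. It also called 1 corepressor gene lower and 1 housekeeping gene higher. Of 70 ribosomal protein genes 69 were lower (median -0.31), none of them past the test. With the block 3 were called lower, against 3.72% of all genes.

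**Figure D4:**
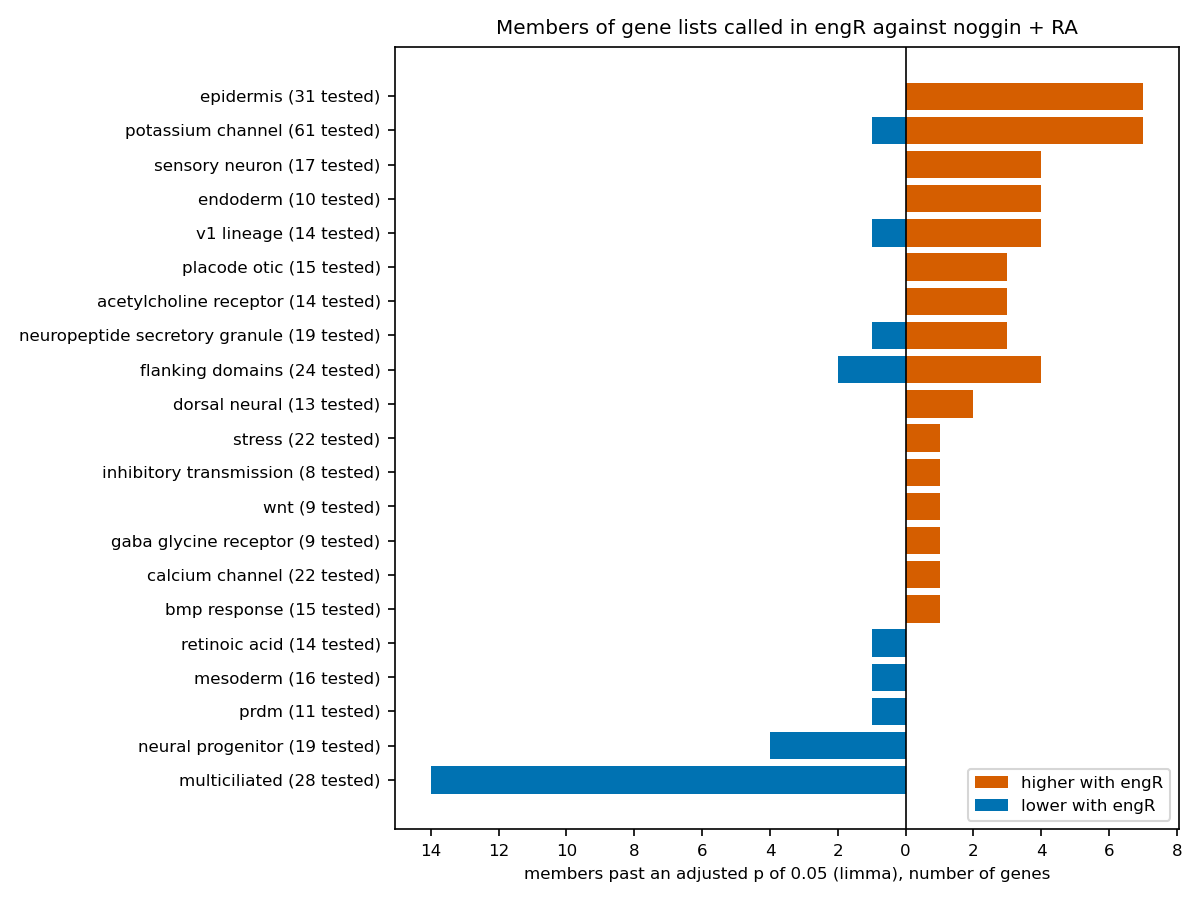
Number of members of each gene list that passed an adjusted p of 0.05 in engR against control caps, higher to the right and lower to the left, for the lists with at least 1 call. The epidermal and potassium channel lists hold 7 rises each and the multiciliated list 14 falls.

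The engR libraries were also compared with those of prdm12 without the added domain. The amount of injected RNA is not given, so the domain cannot be told apart from dose or other differences between the RNAs. No difference of a V1 gene or of slc32a1 passed limma, with or without the block, or DESeq2. For slc32a1 (4660.5 and 3171 with prdm12 against 5417 and 5284 with engR) the difference was 0.48 ± 0.58 with a 95% interval of -0.87 to 1.82. For en1 the levels with prdm12 were 482 and 299 and the interval was -1.92 to 0.90, and for pax2 they were 1374 and 1493 with an interval of -0.76 to 1.55. For foxd3 the levels with prdm12 were 1007 and 1216 and the interval was -2.57 to 1.80. The level of pax8 was 126 and 153 with prdm12, both below the engR libraries, and its interval of 0.27 to 2.59 did not cover 0 (DESeq2 adjusted p = 0.0586). For SP8, which was lower than in the controls with engR, the levels with prdm12 were 269 and 671 and the interval was -1.38 to 0.59. For hmx3 the levels with prdm12 were 615 and 648, both below those with engR, and the interval was -0.17 to 3.41. These intervals, which are not adjusted for the number of genes, leave room for differences of more than 1.5 times in either direction for slc32a1, en1 and pax2.

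Limma and edgeR called none of the 12937 genes between engR and prdm12 (0.0%). An unadjusted p under 0.05 was reached by 679 and 712 of them. A share of 0.05 of genes without a difference would reach it too, and both counts are near that share. The fit with the block called 13 (0.1%), 11 higher (0.085%) and 2 lower (0.0155%) with engR. DESeq2 called 178 (1.38%), 155 of them higher and 23 lower with engR. Without engR replicate 1 limma called none, with or without the block. The 11 higher genes included 3 neuronal ones. The first was sst, at 272 and 91.7 with prdm12, a difference of 4.29 ± 0.76 (adjusted p = 0.297, and 0.0363 with the block). The second was avp, at 7.39 and 4.96 (4.55 ± 0.56, 0.0466 with the block). The third was PIEZO2, at 108 and 68.6 (2.95 ± 0.39, 0.0389 with the block). In each of them both engR libraries lay above both prdm12 libraries, which their selection by a test of these libraries favours.

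Also among the 11 were 3 genes with higher levels in wild-type caps than in engR caps, which were MYO5C (237 and 188 with prdm12, 2.43 ± 0.29), esrp1 (293 and 221, 1.77 ± 0.25) and anxa4 (6042 and 5525, 1.33 ± 0.20). A further 4 were the myosin gene myo10, the receptor phosphatase gene ptprd, the growth factor gene hgf and the cartilage matrix gene crtac1, with differences between 1.61 and 2.40. Lower with engR were the chaperone gene clu, for clusterin (1776 and 3611 against 412 and 1052, adjusted p = 0.0287 with the block), and a gene without a symbol. Among the genes called by DESeq2 alone, both prdm14 (99.8 and 117 against 1214 and 1209.7, DESeq2 adjusted p = 3.1e-17) and DRGX (13.9 and 4.96 against 132 and 127) were higher with engR by DESeq2. So were foxa2 (162 and 211 with prdm12), krt12 (261 and 344) and nkx6-1 (14.8 and 23.1 against 105 and 64.9). Genes lower with engR by DESeq2 included prdm8 (338 and 581 with prdm12, DESeq2 adjusted p = 0.000516), actc1 (2271 and 945, 0.0122) and myod1 (71.1 and 283, 0.0209). In none of these did the limma test pass.

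**Figure D5:**
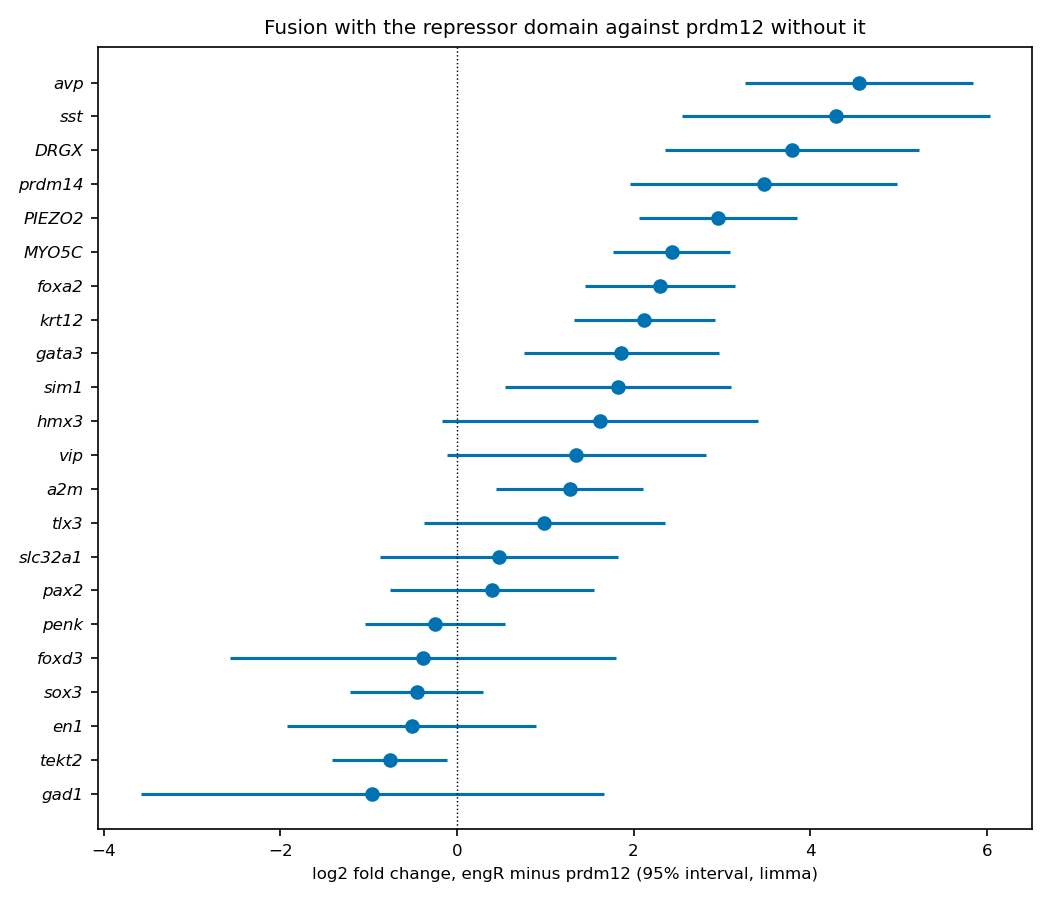
Difference of log2(value + 1) between engR and prdm12 caps for 22 genes named in the text, with points for the estimate and lines for the limma 95% interval, not adjusted for the number of genes. The intervals of slc32a1, pax2, penk, foxd3, sox3, en1 and gad1 cover 0, and those of avp, sst, DRGX, PIEZO2, MYO5C, foxa2 and prdm14 are among those that lie above 1.

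Against the VP16 fusion, in which an activation domain takes the place of the repressor domain, 1567 genes (12.1%) passed, 1125 (8.7%) higher with engR and 442 (3.42%) lower; after quantile normalization 925 were higher and 758 lower. The fit with the block called 3770 (29.1%). Without engR replicate 1 the count of calls was 474 (3.66%), without engR replicate 2 to 325 and without VP16 replicate 1 to 731. The largest called differences upwards included sst (6.91 and 4.91 with VP16, 8.83 ± 0.76, adjusted p = 0.000905), vtn (0 and 0.980), gad1 (2.30 and 34.4) and slc32a1 (17.3 and 52.0). Among them were also the synuclein gene sncg (2.30 and 6.87 against 761 and 1095), the NMDA receptor subunit gene grin2a (1.15 and 9.82 against 515 and 1241) and the GABA-B receptor partner gene KCTD16 (0 and 14.7 against 428 and 671). The genes en1 and pax2 were higher with engR by 6.73 ± 0.61 and 6.81 ± 0.50, and hmx3 and PIEZO2 by 6.65 ± 0.78 and 4.58 ± 0.39.

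Lower with engR than with VP16 were phox2a (-6.60 ± 0.72, adjusted p = 0.00224), the fatty acid elongase gene elovl2 (873 and 719 with VP16 against 10.4 and 30.9), the SCO-spondin gene SSPO of the floor plate (43.8 and 23.6 against 1.04 and 0) and the calcium-activated potassium channel gene kcnn4 (488 and 212 against 15.6 and 13.4). By list, 7 of 14 V1 genes, 6 of 8 inhibitory transmission genes, 10 of 19 neuropeptide and granule genes and 17 of 39 neuronal differentiation genes were higher with engR. The inhibitory gene slc6a13 was lower (adjusted p = 0.0314). Summed levels of the neuronal differentiation list were 28451 and 87965 with VP16, below both controls at 104816 and 157135. With engR these sums were 209274 and 228411, and no gene of that list passed limma against the controls. In the same comparison 19 of 28 multiciliated and 8 of 19 neural progenitor genes were lower. Levels of tekt2 were 2436 and 2282 with VP16 and those of sox3 2738 and 3421, above both engR libraries. The prdm12 line itself had 379 and 250.3 with VP16, a difference of -0.59 ± 0.77 from engR that did not pass (adjusted p = 0.675).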

How the data were processed

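RNA was poly-A selected and sequenced from non-stranded libraries, per the labels. The submitters' processing notes list the tools Bowtie, Bowtie2, edgeR and HOMER, without versions. In the sources used here, the gene counter and the genome build are not given. The authors deposited a normalized signal per gene. In each library at least 99.99% of the values were whole multiples of a single step within 0.05, so read counts and depth were recovered. The table had 19926 lines, 5 of them counter totals that were dropped, and gene identifiers are those of Xenopus tropicalis, so both homeologs of a Xenopus laevis gene, close paralogs and antisense partners share or split reads in ways that cannot be resolved. Scaffold positions are as deposited.

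Libraries were grouped by title; every column name but the wild-type code names its construct, and the wild-type columns were matched by elimination. No label says whether replicates are separate clutches, so the p-values may measure technical spread. The main test was limma 3.58.1 (R 4.3.3) and its intensity trend, run on log2(value + 1). It covered the 12937 genes whose mean was at least 10 and all 10 libraries, with a term for group alone. Residual degrees of freedom were 5, to which the moderation added 3.17; tests were two-sided and Benjamini-Hochberg adjusted within each of 3 comparisons. The fit was tried on simulated counts with the same dispersion for every gene and no replicate effect. Such counts do not cover the replicate differences shared between groups that are given below. The edgeR 4.0.16 quasi-likelihood test and DESeq2 1.42.0 were run on recovered reads, and other alternatives were pseudocounts, filters, scalings, no trend, fewer libraries and a block for the replicate number. The change from replicate 1 to 2 was correlated, over genes, between every 2 of the 5 groups (r from 0.22 to 0.79), so the numbers were taken to pair the libraries, although the labels do not say what a number marks.

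The members and the 35 gene lists were chosen with earlier results of these data known. Named genes were taken by a rule of the largest called changes, the smallest p in each list, and 9 genes fixed by name; MYO5C, anxa4, esrp1 and adarb2, the genes called against prdm12 with the block or DESeq2, and a few list members were added after their values were seen. The counting intervals of read ratios cover counting error only. The intervals of log2 differences are from limma and rest on the spread between libraries. Peak lists were not used here, and a few genes that the rule names are not reported here.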

Additional observations from a re-analysis of the deposited data

Results flagged for a closer look

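The share of read records not aligned uniquely, a counter total outside the gene table that no comparison uses, was 34.1% in engR replicate 1 and 34.2% in engR replicate 2. The control libraries of noggin and retinoic acid had 27.7% and 26.4%, and the wild-type libraries had 44.0% and 34.3%. Its part in the gene results was not tested.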

How the results depend on the processing

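In engR against control caps, 444 genes passed in the main test, and counts were 1414 with the replicate block, 1169 with DESeq2, 2304 in the 8 neuralized libraries with the replicate block, and between 4 and 478 when 1 library was left out; without engR replicate 1 but with the replicate block it was 537, and no call of a named gene was lost with the block. Libraries left alone in a group were assumed to vary like the other groups. Quantile normalization moved the median of all genes from 0.03 to -0.13. Against prdm12 the main count of 0 became 13 with the replicate block, 178 with DESeq2 and 53 in the 8 neuralized libraries with the block, and was 0 without any 1 library. Against VP16 the main count of 1567 became 640 in the 2 groups alone, 3770 with the replicate block, 2413 with DESeq2 and 5185 in the 8 neuralized libraries with the block, and 325 to 1662 when 1 library was left out. The alternative with 8 libraries and the block, and that without engR replicate 1 with the block, were chosen after seeing the data. The cause of these shifts was not tested.

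Of 76 genes named in the text that passed in engR against control caps, 76 passed with the replicate block and with DESeq2, 69 with edgeR, 74 after quantile normalization, 4 without engR replicate 1, 4 without engR replicate 2 and 55 with the block and without engR replicate 1. Of all 444 calls of the main test, 444 also passed with the block and with DESeq2, 402 with edgeR and 401 after quantile normalization. That all 76 named genes passed with the block and with DESeq2 therefore follows from their choice among these calls. Signs reversed for genes with differences near 0 that did not pass. For nkx6-2 the difference was -0.038 after quantile normalization, -0.043 with edgeR, -0.15 to 0.17 when 1 library was left out, and -0.15 with the block and without engR replicate 1. Over the same omissions it was -0.47 to 0.032 for dbx1. With 2 libraries a group, differences of low genes with 1 to 3 reads are limited by depth, and those of en1, hmx2, nxph2, ppp1r1c, pllp, darmin and wnt9b rest on at most 8 control reads.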
